A study of Mus musculus with 8 samples.

Results

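The genes of 9 Toll-like receptors (Tlr1, Tlr2, Tlr3, Tlr4, Tlr6, Tlr7, Tlr8, Tlr9 and Tlr13) and of their co-receptor CD14 were followed across the deposited counts. They were chosen by symbol: 10 of 10 were present among 24421 gene symbols, and 10 of 10 passed the filter on low counts that left 11519 tested genes. The libraries were RNA sequencing of macrophages derived in culture from bone marrow (BMDM), 24 h after interleukin 4 (IL-4). CKO denotes 4 libraries from OPA1f/f; Lyz2-Cre mice (replicates 2, 6, 7 and 8). FLOX denotes 4 libraries from OPA1f/f mice (replicates 3, 4, 6 and 7). The floxed Opa1 allele and IL-4 were thus common to both groups, and CKO differed by the Cre driver, which is expressed in myeloid cells from the Lyz2 locus. No unstimulated library and no library with the driver alone was part of the comparison, so Opa1 deletion and the driver cannot be told apart. The labels give no age, and leave unsaid whether each library is a separate mouse. P-values therefore measure the spread between these libraries, which may be technical.

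Toll-like receptors are membrane proteins whose outer leucine-rich domain binds microbial molecules and whose inner TIR domain recruits adaptor proteins. Those of the cell surface recognise bacterial lipids and proteins, whereas those of endosomes recognise nucleic acids and need the chaperone UNC93B1 to get there. In macrophages the adaptor MyD88 leads from most of them to NF-kB and inflammatory cytokines, and the adaptor TRIF leads from TLR3 and TLR4 to type I interferon.

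Between 11764855 and 18939948 pairs per library were assigned, of which 0.126% to 0.169% fell on the 10 receptor genes. CPM are counts scaled to the number of assigned pairs and by TMM factors. Opa1, the targeted gene, had 94.6, 98.5, 104.5 and 102 CPM in CKO replicates 2, 6, 7 and 8, against 103.6, 114, 108 and 130.3 CPM in FLOX replicates 3, 4, 6 and 7. Its log2 fold change, CKO over FLOX, was -0.19 (SE 0.07, adjusted p = 0.0544 by edgeR), and gene totals do not resolve the deleted exons. The value turned on which FLOX libraries were kept, and its call on that and on the normalisation. With upper-quartile factors and all libraries kept it was called (-0.18, adjusted p = 0.0446 by edgeR). It was -0.29 and called without FLOX replicates 3 and 6 (adjusted p = 0.00139) and -0.085 and not called without FLOX replicates 4 and 7 (adjusted p = 0.258), the ends of its range over 19 alternatives, and it was also called without FLOX replicate 3 (0.0182) or 6 (0.0496). Lyz2, the driver locus, averaged 2029 ± 250 CPM in CKO libraries and 7434 ± 597 CPM in FLOX libraries (SD, n = 4 each). All 10 macrophage markers listed were detected and tested, of which Csf1r (-0.42), Cd68 (-0.48), Mertk (-0.78), C1qb (-0.43) and C1qc (-0.26) fell on the log2 scale, Fcgr1 rose by 1.04, and Adgre1, Itgam, C1qa and Mrc1 did not pass. Over all tested genes 23.8% were called higher and 21.6% lower in CKO. The macrophage markers summed to 7879 to 8665 CPM in CKO and 9062 to 9281 CPM in FLOX. The extraction text names islets, but 6 of 7 islet markers had 0 counts in every library. The second principal component (12.7% of the variance) placed FLOX replicates 3 and 6 on one side and FLOX replicates 4 and 7 on the other. The same pairs stood apart for several receptor genes, and values without a pair are given where a call or a sign turned on it. These pairs were chosen after the data were seen. Leaving out libraries that differ from the rest narrows the FLOX spread, so a small p-value without a pair is no separate support for a difference.

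**Figure D1:**
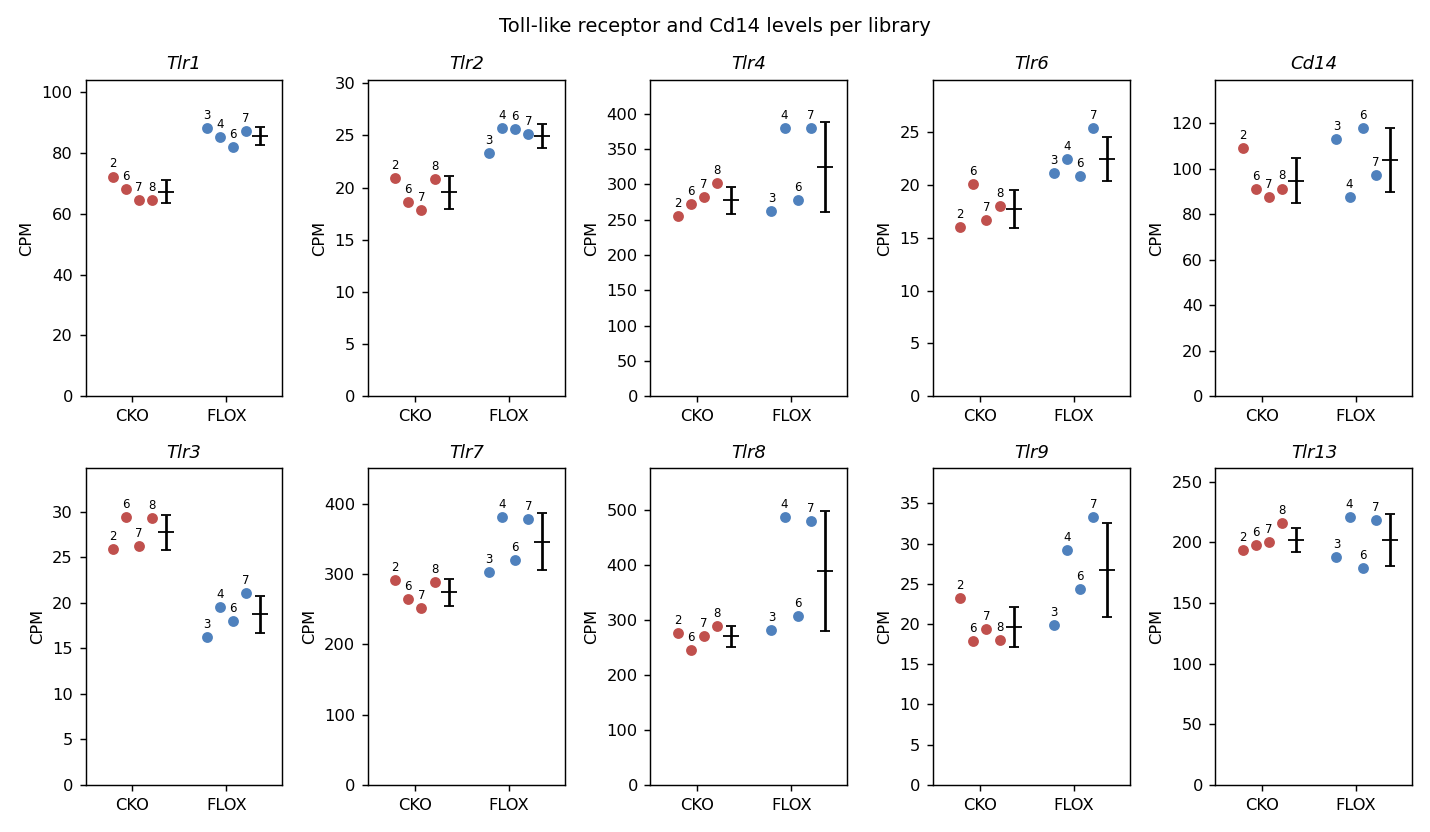
CPM of each of the 10 receptor genes in every library, CKO in red and FLOX in blue; numbers beside the points are the replicate numbers, and the black bars are the mean ± SD of 4 libraries. Tlr3 is higher in every CKO library than in any FLOX library, Tlr1, Tlr2, Tlr6 and Tlr7 are lower, and for Tlr4 and Tlr8 the FLOX libraries fall into a high and a low pair.

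In CKO 6 of the 10 receptor genes were lower (Tlr1, Tlr2, Tlr6, Tlr7, Tlr8 and Tlr9), 1 was higher (Tlr3), and 3 did not pass an adjusted p of 0.05 (Tlr4, Tlr13 and Cd14). Over all tested genes 45.4% passed, 23.8% higher and 21.6% lower in CKO. The changes were small. The 6 falls ran between 69.5% of the FLOX level for Tlr8 and 79.2% for Tlr7, and Tlr3 reached 148% of it. The median log2 fold change of the 10 genes was -0.34, against -0.019 over all tested genes. CKO and FLOX ranges were separate for 5 of the 10, against 42.7% of all tested genes. Without CKO replicate 7 the count of called receptor genes was 4 in place of 7. It was 8 without FLOX replicates 3 and 6, and 5 without FLOX replicates 4 and 7. Fewer receptor-bearing cells and less receptor RNA per cell cannot be told apart in these bulk libraries.

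**Figure D2:**
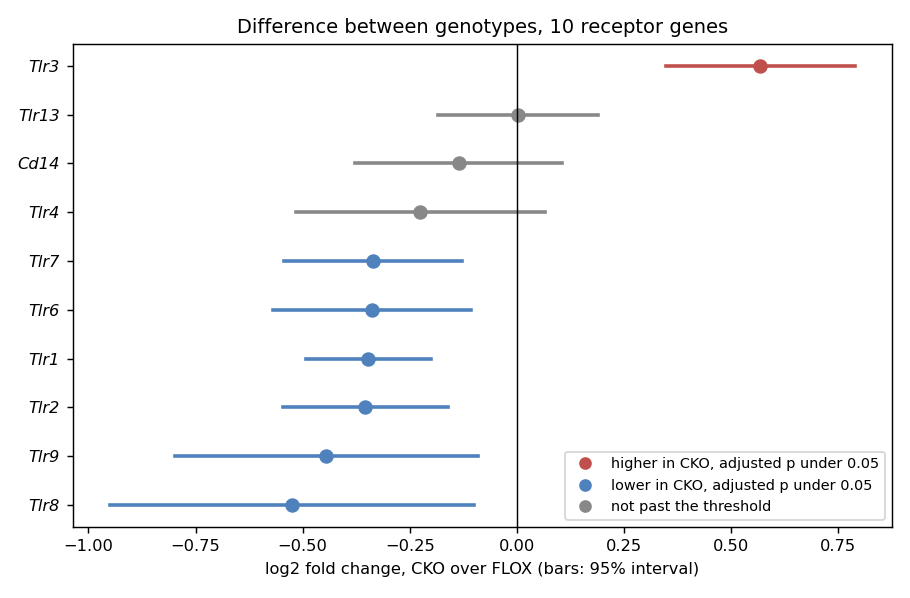
Log2 fold change, CKO over FLOX, of the 10 receptor genes in edgeR's fit over all tested genes; points are estimates and bars 95% intervals. The interval of Tlr3 lies above 0, those of Tlr13, Cd14 and Tlr4 include 0, and those of the other 6 lie below 0.

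TLR2 and its partners TLR1 and TLR6 form the surface receptors for bacterial lipopeptides, and the genes of all 3 were lower in CKO. Tlr1 (ENSMUSG00000044827, chromosome 5, 64924679 to 64933563, minus strand, mm10) had 72.2, 68.1, 64.4 and 64.4 CPM in CKO replicates 2, 6, 7 and 8, against 88.1, 85.0, 81.8 and 87.2 CPM in FLOX replicates 3, 4, 6 and 7. The groups were well apart, with the highest CKO library below the lowest FLOX library. The estimated log2 fold change was -0.35 (SE 0.06, adjusted p = 0.000487 by edgeR), the most precise estimate of the 10, and ran between -0.38 and -0.31 over 19 alternatives, all of which kept the call.

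Tlr2 (ENSMUSG00000027995, chromosome 3, 83836272 to 83841767, minus strand), the partner that both heterodimers share, had 20.9, 18.6, 17.9 and 20.8 CPM in CKO, against 23.3, 25.7, 25.6 and 25.1 CPM in FLOX. No CKO library reached the lowest FLOX library, replicate 3. Its log2 fold change was -0.35 (SE 0.08, adjusted p = 0.00283 by edgeR), again kept under all 19 alternatives. Tlr6 (ENSMUSG00000051498, chromosome 5, 64952031 to 64960097, minus strand) had 16.0, 20.1, 16.7 and 18.0 CPM in CKO, against 21.2, 22.5, 20.8 and 25.4 CPM in FLOX. The groups came close to each other at CKO replicate 6 and FLOX replicate 6. A log2 fold change of -0.34 was found (SE 0.09, adjusted p = 0.0110 by edgeR). That call ended when CKO replicate 7 was omitted (adjusted p = 0.0583) and without FLOX replicates 4 and 7 (adjusted p = 0.0536), with a range of 0.00220 to 0.0909 over 19 alternatives.

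Tlr1 and Tlr6 lie 18467 bases apart and are partly near-identical. Over 1069 aligned bases their longest coding transcripts share 95.04% of positions, with a longest identical run of 229 bases. Pairs in the counting class of non-unique alignments were not assigned to genes, so reads from this stretch may be missing or split and the levels of both genes are uncertain. The ratio of Tlr1 to Tlr6 levels per kilobase was 4.27 ± 0.55 in CKO and 4.26 ± 0.34 in FLOX (SD, n = 4 each), and its ranges overlapped.

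TLR4 with its partner MD-2 binds bacterial lipopolysaccharide, which CD14 hands over, and neither Tlr4 nor Cd14 passed the test. Tlr4 (ENSMUSG00000039005, chromosome 4, 66827584 to 66930284, plus strand) had 255, 272, 281 and 301 CPM in CKO, against 262, 379.6, 278 and 379.6 CPM in FLOX. FLOX replicates 4 and 7 stood above every CKO library, whereas FLOX replicates 3 and 6 lay within the CKO range. On the log2 scale the fold change was -0.23 (95% interval -0.52 to 0.066, adjusted p = 0.145 by edgeR). It was -0.32 and called without FLOX replicate 3 (adjusted p = 0.0231). The FLOX pairs left out next were chosen after the data were seen. Without replicates 3 and 6 the log2 fold change was -0.45 and called (adjusted p = 1.94e-05), and without replicates 4 and 7 it was 0.039 (adjusted p = 0.653). These 2 gave the ends of its range of adjusted p over 19 alternatives.

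Cd14 (ENSMUSG00000051439, chromosome 18, 36725067 to 36726798, minus strand) had 109, 91.0, 87.6 and 91.3 CPM in CKO, against 113, 87.4, 118 and 97.5 CPM in FLOX. The groups overlapped, and here FLOX replicates 4 and 7 were the low pair. For this gene the log2 fold change was -0.14 (95% interval -0.38 to 0.11, adjusted p = 0.286 by edgeR). It was 0.031 without FLOX replicates 3 and 6 (adjusted p = 0.776) and -0.29 and called without FLOX replicates 4 and 7 (adjusted p = 0.00704), the ends of its range over 19 alternatives. The ratio of Cd14 to Tlr4 levels per kilobase was 1.37, 1.07, 0.998 and 0.972 in CKO, against 1.39, 0.738, 1.36 and 0.824 in FLOX. It thus varied more among FLOX libraries than between the genotypes.

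Tlr3, whose product senses double-stranded RNA in endosomes and signals through TRIF, was the receptor gene that rose. Tlr3 (ENSMUSG00000031639, chromosome 8, 45395665 to 45411080, minus strand) had 25.9, 29.4, 26.2 and 29.3 CPM in CKO, against 16.3, 19.6, 18.0 and 21.1 CPM in FLOX. Every CKO library lay above the highest FLOX library, replicate 7. Its log2 fold change was 0.57 (SE 0.09, 95% interval 0.35 to 0.79, adjusted p = 0.000266 by edgeR), and it ran between 0.45 and 0.69 over 19 alternatives with the call kept in each. At 232 to 447 counts per library, counting error was at most 6.57% of a library's value. An annotated antisense gene, Gm45542, overlaps Tlr3 and has no row in the count files. Since no strand setting is given, whether reads of Gm45542 were counted as Tlr3 is not known.

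Promoter windows are shown for Tlr3, Tlr1 and Tlr2, the receptor genes with the smallest p-values, and for Tlr6, which shares its chromosomal neighbourhood with Tlr1. RefSeq windows on GRCm38.p6, the same assembly as mm10, run 250 bases before to 50 bases after an annotated start and were found for 7 of the 10 genes. They are written 5′ to 3′ on the gene's strand, and capitals mark matches to any of 5 motifs searched on both strands. The motifs were GGGA and TTCC parted by any 2 bases for NF-kB, GAAA and GAAA parted by any 2 bases for the interferon-stimulated response element (ISRE), AANNGAAA for the core bound by interferon regulatory factors (which the ISRE contains), TGANTCA for AP-1 and GAGGAAGT for PU.1. Tlr1 and Tlr6 have 2 windows each in the table, and 1 of each is given.
Tlr3, chr8:45410331-45410630, minus strand: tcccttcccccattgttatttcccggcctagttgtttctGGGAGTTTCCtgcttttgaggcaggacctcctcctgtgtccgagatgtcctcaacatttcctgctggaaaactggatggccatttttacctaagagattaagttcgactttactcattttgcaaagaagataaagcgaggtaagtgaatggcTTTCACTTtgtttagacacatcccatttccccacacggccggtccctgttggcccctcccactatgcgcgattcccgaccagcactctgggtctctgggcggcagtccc
Tlr1, chr5:64933509-64933808, minus strand: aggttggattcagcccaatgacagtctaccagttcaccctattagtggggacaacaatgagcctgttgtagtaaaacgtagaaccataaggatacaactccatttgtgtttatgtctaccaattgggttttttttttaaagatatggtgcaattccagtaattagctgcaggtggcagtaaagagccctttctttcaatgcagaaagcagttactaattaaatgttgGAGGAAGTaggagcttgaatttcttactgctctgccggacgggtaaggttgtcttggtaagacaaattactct
Tlr2, chr3:83841559-83841858, minus strand: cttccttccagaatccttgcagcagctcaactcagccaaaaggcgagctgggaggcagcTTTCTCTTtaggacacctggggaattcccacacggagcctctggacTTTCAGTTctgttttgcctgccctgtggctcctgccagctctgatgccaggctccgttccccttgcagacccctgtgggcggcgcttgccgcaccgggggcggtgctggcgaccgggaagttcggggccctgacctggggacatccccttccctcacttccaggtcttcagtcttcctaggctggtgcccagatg
Tlr6, chr5:64959117-64959416, minus strand: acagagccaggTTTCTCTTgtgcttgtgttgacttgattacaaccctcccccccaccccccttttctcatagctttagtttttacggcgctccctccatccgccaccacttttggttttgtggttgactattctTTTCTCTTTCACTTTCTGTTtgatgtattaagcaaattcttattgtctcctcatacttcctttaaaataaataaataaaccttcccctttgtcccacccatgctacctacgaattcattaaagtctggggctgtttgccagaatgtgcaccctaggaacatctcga

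The Tlr3 window held the NF-kB letters at -211 to -202 and an interferon regulatory factor core at -59 to -52, counted from the annotated start as 0. NF-kB letters occur in 1.47% of the 32851 windows in the table, and the core in 23.9%. The Tlr6 window shown held 2 overlapping ISRE matches between -116 and -101, a motif present in 3.44% of windows, and the other Tlr6 window, which starts at 64959999, held no match to any of the 5. The Tlr1 window shown held the PU.1 letters at -23 to -16, found in 3.2% of windows, and no core, and its other window, which starts at 64932650, held a core. Tlr2 held 2 cores and no match to the other 4 motifs. Its window does contain gggaattccc, which is close to the NF-kB letters searched without matching them. Near matches were not searched for in any window, so a missing match does not mean that a like site is absent. Counted by window, as the share over the table is, 4 of 9 windows of the receptor genes held the core. A match is a description of the letters and no evidence of binding.

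The single-stranded RNA sensor TLR7 and its relative TLR8 are encoded side by side on the X chromosome, 40599 bases apart, and both genes were lower in CKO. Tlr7 (ENSMUSG00000044583, chromosome X, 167304929 to 167330558, minus strand) had 291, 265, 252 and 289 CPM in CKO, against 303, 382, 320.3 and 379 CPM in FLOX. Its groups did not overlap, although CKO replicates 2 and 8 came close to FLOX replicate 3. On the log2 scale the fold change was -0.34 (SE 0.08, adjusted p = 0.00624 by edgeR), and -0.19 without FLOX replicates 4 and 7 (adjusted p = 0.0303). Over 19 alternatives its adjusted p ran between 1.30e-05 and 0.0399.

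Tlr8 (ENSMUSG00000040522, chromosome X, 167242696 to 167264329, minus strand) had 277, 245, 270.1 and 289 CPM in CKO, against 282, 488, 307 and 479.6 CPM in FLOX. FLOX replicate 3 lay within the CKO range and FLOX replicate 6 just above it, whereas FLOX replicates 4 and 7 were far higher. For this gene the log2 fold change was -0.53 (SE 0.17, adjusted p = 0.0317 by edgeR), the largest fall and the least precise estimate of the 10. The call ended in 8 of 19 alternatives, including those that omit CKO replicate 2 (adjusted p = 0.0637), 6 (0.102), 7 (0.0849) or 8 (0.0644), or FLOX replicate 4 (0.0829) or 7 (0.0677). Without FLOX replicates 4 and 7 together the log2 fold change was -0.13 (adjusted p = 0.14), and without FLOX replicates 3 and 6 it was -0.84 (adjusted p = 3.48e-08), again the ends of the range. Both pairs were chosen after the data were seen.

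Tlr9 (ENSMUSG00000045322, chromosome 9, 106222598 to 106226883, plus strand), whose product senses DNA rich in unmethylated CpG, had 23.3, 17.9, 19.3 and 18.0 CPM in CKO, against 19.9, 29.2, 24.3 and 33.3 CPM in FLOX. The groups overlapped through CKO replicate 2 and FLOX replicate 3. Its log2 fold change was -0.44 (SE 0.14, adjusted p = 0.0247 by edgeR). The call ended in 6 of 19 alternatives, without CKO replicate 6 (adjusted p = 0.0957), 7 (0.0781) or 8 (0.0924), without FLOX replicate 4 (0.0628) or 7 (0.0600), and without both FLOX replicates 4 and 7 (log2 fold change -0.19, adjusted p = 0.189). Without FLOX replicates 3 and 6 it was -0.68 (adjusted p = 5.77e-05, the lowest over the alternatives).

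Tlr13 (ENSMUSG00000033777, chromosome X, 106143204 to 106160493, plus strand), which encodes the mouse sensor of bacterial ribosomal RNA, had 193, 197, 200.5 and 216 CPM in CKO, against 188, 221, 179 and 218 CPM in FLOX. The CKO range lay wholly inside the FLOX range. On the log2 scale the fold change was 0.0030 with a 95% interval of -0.18 to 0.19 (adjusted p = 0.98 by edgeR), so that a change in level beyond 88.1% or 114% of FLOX lies outside the interval. The estimate changed sign with the libraries used, to -0.12 without FLOX replicates 3 and 6 and 0.14 without FLOX replicates 4 and 7, neither of them called.

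**Figure D3:**
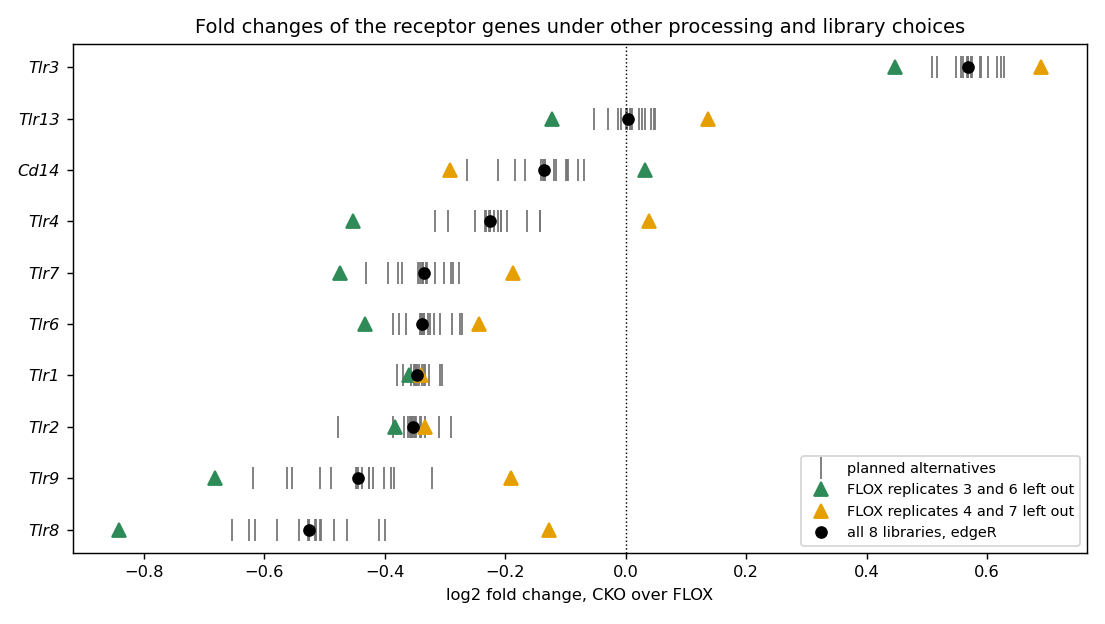
Log2 fold change, CKO over FLOX, of the 10 receptor genes with all 8 libraries (black), under the other settings (grey ticks) and with a pair of FLOX libraries left out (triangles, added after the data were seen). The triangles lie close together for Tlr1 and Tlr2, on the same side of 0 for Tlr3, Tlr6, Tlr7, Tlr8 and Tlr9, and on opposite sides for Tlr4, Cd14 and Tlr13.

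The receptor genes fell into a high and a low tier when CPM was divided by exon length, the scale on which genes can be compared with each other. Tlr8 was at 75.4 ± 5.25 CPM per kilobase in CKO and 108.5 ± 30.6 in FLOX, and Tlr7 at 67.2 ± 4.66 in CKO and 84.8 ± 9.88 in FLOX (SD, n = 4 each). Cd14, Tlr4 and Tlr13 followed, with means between 46.9 and 54.7 in CKO and between 46.8 and 60.0 in FLOX. Neighbours among these 5 overlapped in their ranges, except that Tlr7 lay above Cd14 in every pair of FLOX libraries. Tlr1 stood alone in the middle at 20.1 ± 1.12 in CKO and 25.6 ± 0.846 in FLOX, without overlap to either side.

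The low tier held Tlr2, Tlr9, Tlr6 and Tlr3, with means between 4.75 and 6.49 CPM per kilobase in CKO and between 3.59 and 8.27 in FLOX. In FLOX Tlr3 was the lowest of the 10, below every Tlr6 value. In CKO it was ninth, at 5.32 ± 0.368 against 3.59 ± 0.398 in FLOX (SD, n = 4 each), and overlapped Tlr6 and Tlr9. With exon lengths from the basic transcript set Tlr3 was eighth in CKO and the FLOX order was the same.

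**Figure D4:**
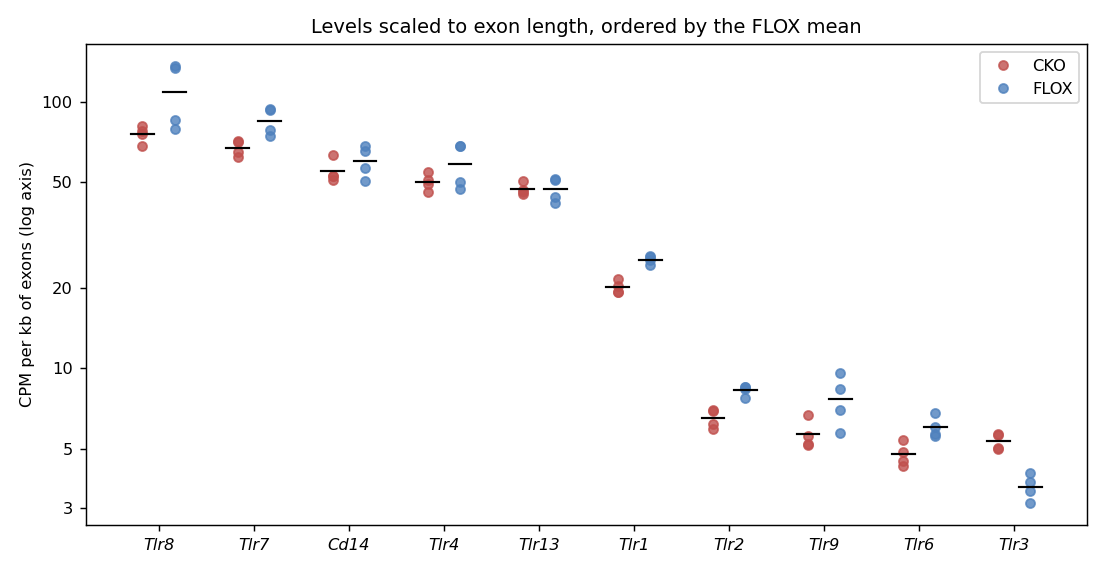
CPM per kilobase of exons on a log axis for the 10 receptor genes, ordered by the FLOX mean, with CKO (red) left of FLOX (blue); points are libraries and black bars are group means. Tlr8, Tlr7, Cd14, Tlr4 and Tlr13 form the high tier, and Tlr3 is the gene whose CKO points lie above its FLOX points.

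Within the pool of the 10 genes, on the same scale per kilobase, the shares of Tlr3 and Tlr13 were higher in CKO and did not overlap between groups. Tlr3 held 1.43%, 1.75%, 1.55% and 1.61% of the pool in CKO, against 0.873%, 0.832%, 0.926% and 0.886% in FLOX. Tlr13, whose own level did not differ detectably, held 14.0% ± 0.67 in CKO and 11.5% ± 0.53 in FLOX (SD, n = 4 each). The endosomal receptors together held 59.6% ± 0.83 in CKO and 61.0% ± 3.83 in FLOX, and overlapped. The summed level of the 5 surface genes was 131 to 142 CPM per kilobase in CKO and 152 to 166 in FLOX, without overlap. For the 5 endosomal genes the sum was 189.8 to 212 in CKO and 205 to 293 in FLOX, with overlap through FLOX replicate 3. These sums and shares describe the libraries and were not tested.

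Genes whose pattern over the 8 libraries was most like that of a receptor gene were searched among 8938 tested genes whose log2 CPM averaged 3 or more. The measure was the root mean square difference of log2 CPM after each gene's own mean was removed. For Tlr3 the nearest were G2e3 (0.0252), Usp37 (0.0465) and Wdfy4 (0.0498), the last at 179 ± 5.93 CPM in CKO libraries and 124 ± 14.7 CPM in FLOX libraries (SD, n = 4 each). For Tlr1 they were Gskip (0.0233), Gga2 (0.0248) and Ncf1 (0.0321), which encodes a subunit of the phagocyte NADPH oxidase and was at 413 ± 23.0 CPM in CKO libraries and 515 ± 13.7 CPM in FLOX libraries. For Tlr2 they were Arhgap18 (0.0434), Zfp954 (0.0458) and Fam73a (0.0509).

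Of 91 further genes listed by role, 75 were tested, of which 11 rose, 28 fell and 36 did not pass, at a median log2 fold change of -0.11. The share called lies near the 45.4% called over all tested genes, of which 23.8% rose and 21.6% fell, and is not a result about these genes. Among the other family members, Tlr11, a mouse receptor for protozoan profilin, averaged 0.614 ± 0.179 CPM in CKO libraries and 1.17 ± 0.430 CPM in FLOX libraries (SD, n = 4 each). Its log2 fold change of -0.97 (adjusted p = 0.0302 by edgeR) rests on few counts, and the call ended without CKO replicate 6 (adjusted p = 0.0768) or 7 (0.111) and without FLOX replicate 4 (0.0730) or 6 (0.101) and without FLOX replicates 4 and 7 together (0.0547), with a range of 0.01003 to 0.116 over 18 alternatives. The flagellin receptor gene Tlr5 stood at 0.449 ± 0.178 CPM in CKO libraries and 0.0555 ± 0.072 CPM in FLOX libraries, and like Tlr12 was too low to be tested.

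Partners of the receptors at the surface went in both directions. Ly96, which encodes the MD-2 subunit of the lipopolysaccharide receptor, had 9.72, 8.96, 10.6 and 8.55 CPM in CKO, against 17.03, 16.7, 13.4 and 13.9 CPM in FLOX. It fell without overlap of the groups (log2 fold change -0.68 with SE 0.11, adjusted p = 0.000289 by edgeR), whereas Tlr4 and Cd14 did not pass the test. Cd180, a Toll-like receptor relative that pairs with MD-1, rose by 0.27 on the log2 scale (310 ± 8.46 CPM in CKO libraries and 256 ± 2.66 CPM in FLOX libraries, SD, n = 4 each). The gene of MD-1, Ly86, had a log2 fold change of 0.049 (adjusted p = 0.678 by edgeR). Cd36, a scavenger receptor that assists TLR2 with TLR6, rose by 0.43 (adjusted p = 0.000136 by edgeR).

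UNC93B1 brings the endosomal receptors to their site. Its gene Unc93b1 had 404, 329, 327 and 319 CPM in CKO, against 498, 463, 482 and 462 CPM in FLOX. All CKO libraries were below all FLOX libraries, with CKO replicate 2 the nearest to FLOX, and the log2 fold change was -0.47 (SE 0.08, adjusted p = 0.000353 by edgeR). Of 8 genes of chaperones and traffic 5 fell and 0 rose, where 21.6% of all tested genes fell and 23.8% rose. Those that fell included Slc15a4 (-0.56), an endolysosomal histidine and peptide transporter needed for TLR7 and TLR9 signalling, and Rab7b (-0.38), a small GTPase of late endosomes. Tmed7 (-0.16) was a marginal call, which ended in 11 of 19 alternatives. They included leaving out CKO replicate 2 (adjusted p = 0.0718), 6 (0.143), 7 (0.125) or 8 (0.0595) and FLOX replicate 4 (0.0679) or 7 (0.0581), and both FLOX replicates 4 and 7 (0.0857), with a range of 0.00296 to 0.181. The chaperone genes Hsp90b1 (-0.067) and Cnpy3 (0.00072) did not pass.

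Endosomal proteases and nucleases fell in 8 of 9 tested genes, at a median log2 fold change of -0.58, and 0 rose, beside 21.6% lower and 23.8% higher over all tested genes. The cysteine protease genes Ctsk (-1.30) and Lgmn (-0.79), the exonuclease gene Pld3 (-0.94), whose product trims nucleic acids that TLR9 and TLR7 would sense, and the lysosomal nuclease gene Dnase2a (-0.61) had the smallest p-values. Pld3 stood at 284 ± 48.9 CPM in CKO libraries and 544 ± 31.5 CPM in FLOX libraries (SD, n = 4 each; adjusted p = 1.27e-05 by edgeR). Rnaset2a had 0 counts in every library, and its near-identical copy Rnaset2b was at 12.9 ± 1.62 CPM in CKO libraries and 13.3 ± 1.52 CPM in FLOX libraries, so the pair is uncertain.

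Of 6 tested adaptor genes 3 fell, 1 rose and 2 did not pass, beside 21.6% lower and 23.8% higher over all tested genes. Myd88, the adaptor of all receptors here except TLR3, had 66.0, 59.0, 57.4 and 58.9 CPM in CKO, against 62.5, 57.8, 65.1 and 58.6 CPM in FLOX. The groups overlapped (log2 fold change -0.019, 95% interval -0.18 to 0.14, adjusted p = 0.84 by edgeR). Ticam1, which encodes TRIF, had 35.9, 29.9, 29.0 and 28.9 CPM in CKO, against 45.2, 43.9, 40.1 and 45.7 CPM in FLOX. It fell without overlap (log2 fold change -0.50, SE 0.08, adjusted p = 0.000311 by edgeR), while Tlr3, the receptor that depends on it, rose. Ticam2, the bridging adaptor between TLR4 and TRIF, fell by 0.50 on the log2 scale as well (adjusted p = 0.000414 by edgeR). Pik3ap1, an adaptor that links these receptors to PI3-kinase, rose by 0.36. Scimp, at 3.10 ± 0.940 CPM in CKO libraries and 4.95 ± 0.828 CPM in FLOX libraries (SD, n = 4 each), had a log2 fold change of -0.66, whose call ended without CKO replicate 6 (adjusted p = 0.0746) or 8 (0.0721) and without FLOX replicates 4 and 7 together (0.0749), with a range of 0.00853 to 0.0784.

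Downstream of the adaptors 6 of 18 kinase and ubiquitin ligase genes fell, 0 rose and 12 did not pass, at a median log2 fold change of -0.066. The share called is below the 45.4% over all tested genes. The kinase genes Irak4 (-0.40) and Irak2 (-0.45), which act directly after MyD88, and Tbk1 (-0.27) and Ikbke (-0.29), which activate interferon regulatory factors, had the smallest p-values. Of 11 inhibitor genes Tnip1 fell (-0.36) and Il1rl1, which encodes the IL-33 receptor, rose by 1.84 (adjusted p = 9.74e-07 by edgeR). Of 7 transcription factor genes Irf7 rose by 1.77 and Nfkb2 fell (-0.31), and the other 5 did not pass. For inhibitors and transcription factors alike, the share called is below the 45.4% over all tested genes. Among 17 listed cytokines and enzymes that these receptors induce, 7 were tested, 4 rose and 1 fell, beside 45.4% called over all tested genes. Tnf, an inflammatory cytokine, had 8.13, 13.3, 7.45 and 7.34 CPM in CKO, against 3.15, 3.17, 6.53 and 4.33 CPM in FLOX (log2 fold change 1.04, SE 0.26, adjusted p = 0.00772 by edgeR). Ccl5 (0.75) also rose, and Ccl3 fell (-0.37). Il10, named after its value was seen, rose by 0.66 (adjusted p = 0.0412 by edgeR). It rests on few counts, at 2.19 ± 0.586 CPM in CKO libraries and 1.37 ± 0.364 CPM in FLOX libraries, and its call was not followed over the alternatives. The call of Ccl4 (0.27) ended without CKO replicate 7 (adjusted p = 0.0883) or 8 (0.0939) and without FLOX replicate 3 (0.0593), 6 (0.0875) or 7 (0.0727), and without FLOX replicates 3 and 6 together (0.123), the highest of a range that began at 0.00967. Il6, Il1b, Il12b and Nos2 averaged below 0.4 CPM in both groups and Il12a and Csf3 had 0 counts. Of 4 tested further receptors with a TIR domain, which serve interleukins, Il18rap rose by 1.68, Il1rap rose by 0.88 and Il1r1 fell (-0.63). This too stands beside 45.4% called over all tested genes.

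**Figure D5:**
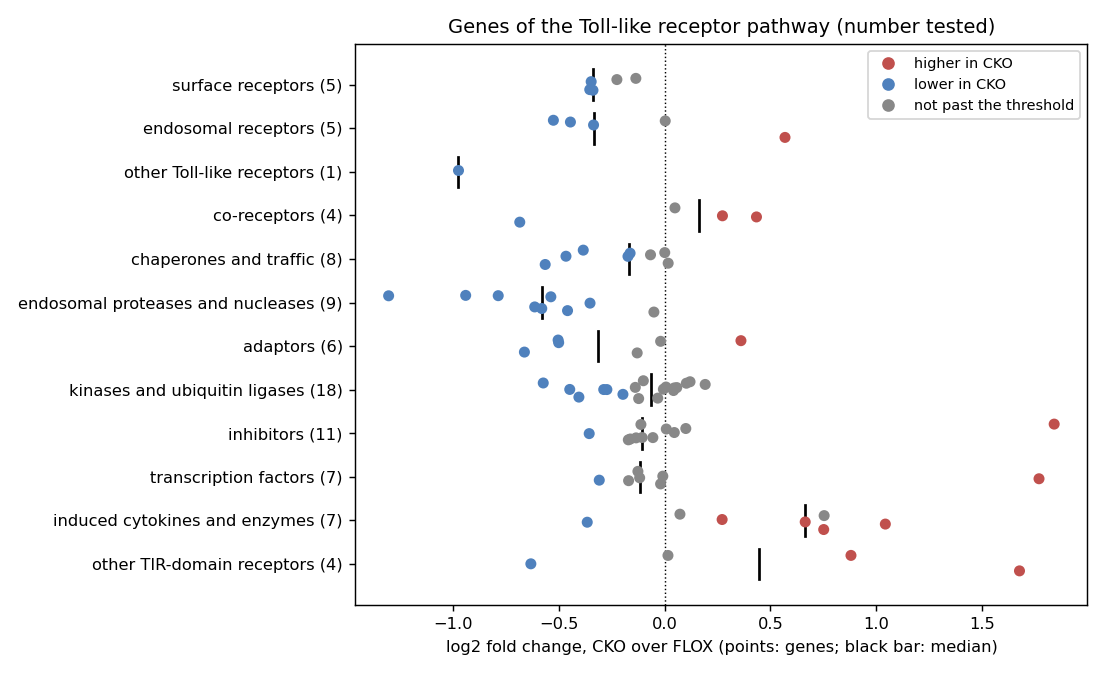
Log2 fold change, CKO over FLOX, of each tested gene in the receptor groups and the 10 lists of pathway genes; colours show the call in edgeR's fit over all tested genes and black bars the list medians. Proteases and nucleases lie mostly below 0, kinases around 0, and single genes of other lists (Il1rl1, Irf7, Il18rap) lie above 1.5.

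Markers of several other cell types were counted in the same libraries. Of all tested genes 23.8% rose and 21.6% fell in CKO, beside which the counts of called markers are to be read. For plasmacytoid dendritic cells, which use TLR7 and TLR9, the sum of 6 markers was 5.72 to 7.62 CPM in CKO and 1.44 to 2.31 CPM in FLOX, nearly all of it Cox6a2, while Klk1 was at 0 and Siglech averaged 0.0806 CPM in CKO and 0.0975 CPM in FLOX. Of 5 tested monocyte markers 4 rose and S100a4 fell, with a sum of 984 to 1120.0 CPM in CKO and 1189.6 to 1588 CPM in FLOX. Nearly all of that sum was S100a4, at 967 ± 60.3 CPM in CKO libraries and 1332 ± 178 CPM in FLOX libraries, whereas Ccr2 stood at 72.7 ± 7.99 CPM in CKO libraries and 33.4 ± 3.12 CPM in FLOX libraries (SD, n = 4 each). The neutrophil marker sum was 121 to 149.7 CPM in CKO and 218 to 314 CPM in FLOX, most of it Csf3r, while 3 of its 5 tested genes rose and 1 fell and Elane and Retnlg were at 0. For T and NK cells the sum was at most 0.246 CPM in CKO and 0.151 CPM in FLOX, with Cd3e, Cd3g and Ncr1 at 0. Mast cell and basophil markers summed to 4.805 to 5.47 CPM in CKO and 7.29 to 9.43 CPM in FLOX. Most of that sum was Kit, and Mcpt8, Ms4a2 and Fcer1a were at 0. Stromal and endothelial markers summed to 11.99 to 14.5 CPM in CKO and 7.57 to 8.996 CPM in FLOX, most of it Pecam1. Conventional dendritic cell markers summed to 138 to 147 CPM in CKO and 123 to 146 CPM in FLOX. The part of these markers in the receptor results was not tested.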

How the data were processed

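The authors deposited, for each of 8 RNA sequencing libraries, raw whole-number counts by gene symbol. HISAT2 2.0.5, mm10 and HTSeq are listed in the submitters' processing notes. The version and strand setting of HTSeq, and its annotation, were not stated in the sources used. Its 5 unassigned classes (28.3% to 33.7% of pairs) entered neither library sizes nor tests.

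Counts were tested in R 4.3.3 with edgeR 4.0.16 (filterByExpr with minimum count 10 and total 15, TMM factors, robust quasi-likelihood F test), with Benjamini-Hochberg adjustment over 11519 genes and a threshold of 0.05. SE is the absolute log2 fold change over the root of F, and 95% intervals take 6 residual degrees of freedom. CPM are TMM-scaled, and positions and exon lengths came from GENCODE M21. Within groups, libraries differed beyond sampling noise (chi-square over its degrees of freedom, 2.45 to 27.9). Alternatives were RLE and upper-quartile factors, 2 other filters, DESeq2 1.42.0, limma-voom (limma 3.58.1), a replicate block, removal of the 20 most abundant genes, and libraries left out.

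Named were the 10 receptor genes, Opa1, Lyz2, Ly96, Unc93b1, Myd88, Ticam1, up to 4 called genes of smallest p per list, and the 3 nearest patterns of the 3 receptor genes of smallest p; others were named after their values were seen. The receptor genes, lists and alternatives were chosen with earlier results of these data known, and the 5 motifs after the sequences were seen. One list of cell type markers is not reported here.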

Additional observations from a re-analysis of the deposited data

How the results depend on the processing

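Of 19 alternatives, all kept the calls of Tlr1, Tlr2, Tlr3 and Tlr7. The number of called receptor genes (7) ran between 4 and 8 over the fits that left out 1 library, that of all genes (5231) between 4273 and 5210, and that of pathway genes (39) between 33 and 40. Without a filter Tlr8 was no longer called (log2 fold change -0.53). Leaving out 1 library moved Tlr8 between -0.65 and -0.40, Tlr9 between -0.56 and -0.32, Tlr6 between -0.39 and -0.27, Tlr4 between -0.32 and -0.14 and Tlr13 between -0.052 and 0.049. Without CKO replicate 2 and FLOX replicate 6 together Tlr13 was at -0.0082. Without FLOX replicates 3 and 6, an alternative chosen after seeing the data, Tlr4 was at -0.45, Cd14 at 0.031 and Tlr13 at -0.12. Without FLOX replicates 4 and 7, likewise chosen after seeing the data, Tlr4 was at 0.039, Tlr6 at -0.24, Cd14 at -0.29, Tlr8 at -0.13 and Tlr9 at -0.19. The cause of these shifts was not tested. Myd88 changed sign when the 20 most abundant genes were removed (0.0012), without FLOX replicates 3 and 6 (0.047) and in fits without 1 library (-0.045 to 0.025). Replicate numbers 6 and 7 occur in both groups, but the deviations of same-numbered libraries correlated by 0.139 and -0.0722, so the numbers were not taken as pairs. With the replicate number as a block, only replicates 6 and 7 bear on the genotype effect, since the other numbers occur in CKO or FLOX alone. That fit thus rests on fewer libraries than the main one and has little left to measure spread. In it 3503 genes, 6 receptor genes and 30 pathway genes were called, and Tlr6 was not (-0.32, adjusted p = 0.0909). Calls of named pathway genes that also ended there were those of Cd180 (adjusted p = 0.105), Tbk1 (0.162), Ikbke (0.107), Ccl3 (0.146), Tmed7 (0.181) and Scimp (0.0784). At 191 counts in its shallowest library, Tlr6 carried a counting error of 7.24%, the highest of the 10.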
